A study of Homo sapiens with 15 samples.

Results

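FOXA1 binding was examined across the MYC region of chromosome band 8q24 in 22Rv1, an established line of human prostate carcinoma cells. The region was the window chr8:127500000-129500000 of the hg19 build, 2 Mb that hold the genes PCAT1 and MYC, and every FOXA1 peak of 12 deposited peak lists that lay within it was taken. MYC was placed at chr8:128748000-128754000, a rounded interval of 6 kb given with the window. The window held 230 peaks of the 249079 in all lists. Merged wherever they overlapped, they formed 62 sites, numbered here along the chromosome from site 1 to site 62. No peak lay across an end of the window.

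FOXA1 is a forkhead pioneer factor that can bind closed chromatin and open it for other factors, among them the androgen receptor in prostate cells. The 8q24 region is known as a gene desert: it has few protein-coding genes, many genes for long noncoding RNAs, and many enhancers, some of which contact the MYC promoter over long distances. MYC encodes a transcription factor that drives growth and proliferation, and PCAT1 encodes a long noncoding RNA associated with prostate cancer. In the RefSeq gene table, which is of another build (GRCh38.p14) and was used for gene order alone, PCAT1 precedes MYC. Between the genes lie 11 others, of which 9 are long noncoding RNA genes and 1, POU5F1B, is protein-coding. The gene after MYC is PVT1, itself a long noncoding RNA gene. No position of PCAT1 in hg19 was used here, so no peak was assigned to that gene, and distances are given to MYC only.

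The series held 15 samples, of which 12 were chromatin immunoprecipitations with an antibody against FOXA1 and 3 were inputs, not analysed here. The treatments of parental cells were 0.1% DMSO, 20 µM of either stereoprobe (WX-02-43 and WX-02-23) and PladB (pladienolide B, a splicing inhibitor that binds the complex containing PHF5A), each for 3 h, and an siRNA against FOXA1 (siFOXA1) or a control siRNA (siControl). The PladB dose of the parental sample is 100 nM in its own label and 10 nM in the shared protocol. Engineered cells overexpressed Y36C-PHF5A, in every engineered group including the controls, and carried doxycycline-inducible FOXA1, either wild type (WT) or C258A. Each engineered line was profiled in 0.1% DMSO with no doxycycline (no Dox), and under doxycycline with either 0.1% DMSO or 20 µM WX-02-23. These exposures to DMSO or WX-02-23 also lasted 3 h. The labels describe no removal of the cells' own FOXA1, whose antibody signal cannot be told apart from that of the induced protein.

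Each group had 1 library, so no difference below has a replicate check, and no test or p-value is given. Intervals are Wilson 95% binomial intervals, which express counting error alone, as if peaks were independent draws. The lists held 3018 to 34119 peaks, and the read depth behind them is unknown. A peak that is not called may be weaker binding or a shallower library, which cannot be told apart here. Every peak carries a score, the authors' value, of at least 90 in every list. It is used to rank peaks within a list. Scores of different lists are set side by side only to show the data.

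In parental cells the window held 34 peaks with DMSO, 37 with siControl, 36 with PladB and 5 with siFOXA1, and 22 under WX-02-43 and 17 under WX-02-23. WT cells had 10 peaks without doxycycline, and under doxycycline 17 with DMSO and 16 with WX-02-23. For C258A cells the same 3 lists held 14, 10 and 12. As a share of its list, the window took 0.111% (0.0796 to 0.155%) of the parental DMSO peaks. It took 0.117% (0.0634 to 0.215%) of the WT and 0.110% (0.0654 to 0.184%) of the C258A peaks without doxycycline. The 4 lists with doxycycline had lower shares, from 0.0536% (0.0334 to 0.0858%) in WT cells with DMSO to 0.0752% (0.0409 to 0.138%) in C258A cells with DMSO. These intervals overlap that of the parental DMSO list.

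The 1475 tiles of 2 Mb that held a peak in any list show what a stretch of this size usually held. The window's 34 parental DMSO peaks stood against a median of 20 per tile, with quartiles of 14 and 27. In all 8 lists made without doxycycline the window's count was above the upper quartile of the tiles. The 4 lists with doxycycline stood between the quartiles, as in WT cells with DMSO, where 17 peaks stood against quartiles of 10 and 30. Among the 8575 highest-scoring peaks of each list other than siFOXA1, a length chosen after seeing the data, the window had 8 to 13 peaks in the 7 lists made without doxycycline and 4 to 7 in those made with it. The tiles then had an upper quartile of 8 in all 11 lists. At this length the window was above it in 6 of the 7 lists made without doxycycline, while C258A cells without doxycycline, with 8 peaks, were at it. The plot of shares by list shows the whole lists and the equal length.

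**Figure D1:**
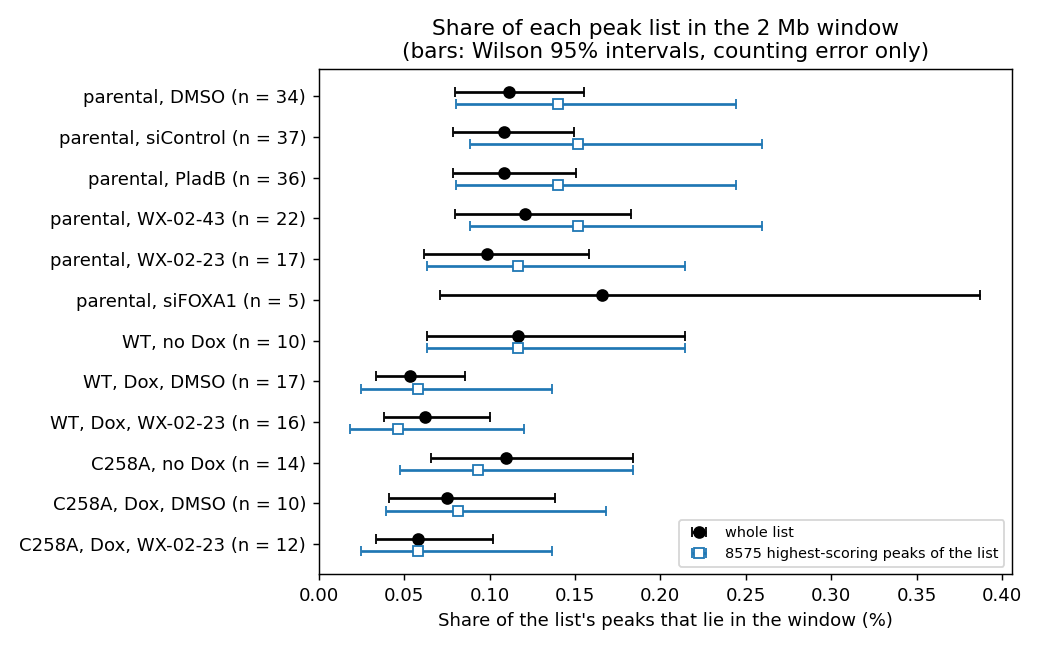
Share of each list's peaks that lay in the window (x axis, %) for the 12 lists (y axis, with the number of window peaks). Filled points are whole lists and open squares the 8575 highest-scoring peaks of each list, with Wilson 95% intervals; the 4 lists with doxycycline have the lowest shares of both kinds, and their intervals overlap those of every other list.

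The sites were spread over the whole window, with 15, 14, 18 and 15 of them in its 4 stretches of 500 kb. Of the 62 sites, 38 lay before MYC, 22 after it and 2 overlapped its interval. The MYC interval is off the centre of the window, which has more length before it than after it. The counts of the sides are therefore not densities. Sites less than 12.5 kb apart were joined into clusters, which gave 41 clusters, 13 of them with several sites. The cluster with the most peaks ran over 27.1 kb, chr8:128505788-128532926, with 5 sites and 29 peaks, and ended 215 kb before MYC. Another, chr8:128023505-128032745, held 4 sites and 22 peaks in 9.24 kb. The widest stretch without a peak in any list was 164 kb, between sites 56 and 57.

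Most sites were called in part of the lists. Of the 62 sites, 4 were called in all 11 lists other than siFOXA1, against 3.82% of the 69194 merged sites of the genome. A further comparison by origin found 26 sites called in parental lists only (36.1% genome-wide), 17 in engineered lists only (36.7%) and 19 in both (27.2%). As shares of the 62 these were 41.9%, 27.4% and 30.6%. A single list called 20 sites (32.3%, against 29.6% genome-wide).

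**Figure D2:**
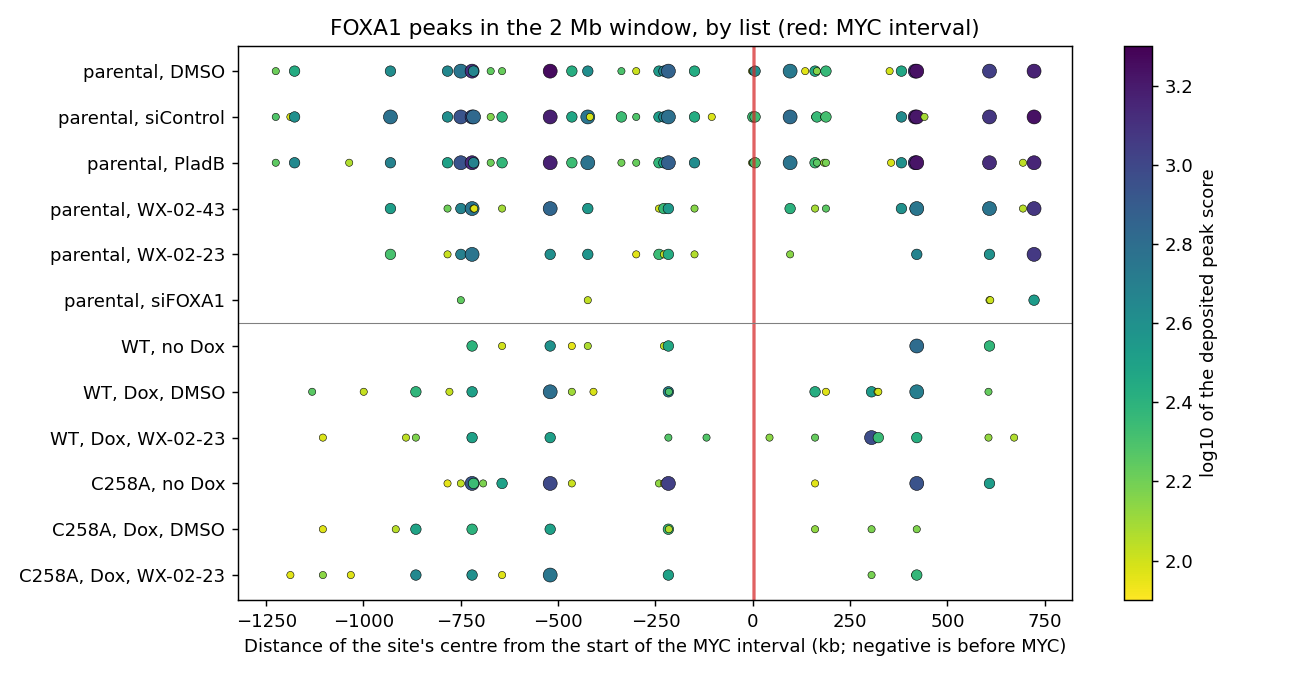
Position of each called site (x axis, distance of its centre from the start of the MYC interval in kb) in each of the 12 lists (y axis), coloured by the log10 of the deposited score; larger points have scores of at least 200 and of at least 500. Both sites that overlap the MYC interval (red) are called in the parental DMSO, siControl and PladB lists only, and the same 4 columns of points run through all 11 lists other than siFOXA1.

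Both sites that overlapped MYC were called with parental DMSO, siControl and PladB and in no other list. Site 39, chr8:128747750-128748737, covered the start of the MYC interval and scored 115 with DMSO, 216 with siControl and 187 with PladB. Site 40, chr8:128753590-128754471, covered its end and scored 399, 219 and 202 in the same order. Site 38, chr8:128746010-128746680, the nearest before MYC at 1.32 kb, was called in the same 3 lists, with scores from 98.8 to 103 near the lists' floor. Neither stereoprobe list, the siFOXA1 list nor any engineered list had a peak at these 3 sites.

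The pattern of these sites, called in all of DMSO, siControl and PladB and nowhere else, occurred at 9 of the 62 sites (14.5%) and at 6.32% of sites genome-wide. The nearest peak to MYC lay 89.8 kb away with WX-02-43 and 89.9 kb away with WX-02-23, both at site 42. That site, chr8:128843525-128844636, after MYC, scored 539.7 with DMSO, 643 with siControl, 579 with PladB, 255 with WX-02-43 and 140 with WX-02-23. Without doxycycline the nearest peak was 216 kb away in WT and 154 kb in C258A cells. One peak within 100 kb of MYC was called in an engineered list, at site 41, chr8:128790937-128791362, 36.9 kb after MYC, with a score of 139 in induced WT cells under WX-02-23.

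The 4 sites called in every list but siFOXA1 lay far from MYC. Site 23, chr8:128226903-128228540, 519 kb before MYC, had the highest window score in 4 lists. Its scores in parental cells were 1817 with DMSO, 1509.6 with siControl, 1492 with PladB, 696 with WX-02-43 and 404 with WX-02-23. In WT cells they were 389 without doxycycline, and under it 622 (DMSO) and 327 (WX-02-23), and in C258A cells 979.6, 319 and 559.5. It ranked 937 of 30557 in the parental DMSO list and 3193 of 31735 in the WT list with doxycycline and DMSO, where no window peak was among the top 10%.

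Site 55, chr8:129168532-129170366, 415 kb after MYC, scored 1719, 1641, 1685, 561 and 471 in the 5 parental lists in the same order. In WT cells its scores were 650.2, 508 and 265 and in C258A cells 870.5, 148 and 235. Site 17, chr8:128026342-128027895, 720.1 kb before MYC in the cluster of 4 sites, scored 1271, 1034, 1369.5, 575 and 569 in parental cells. The engineered values at site 17 were 249, 323 and 316 in WT and 838, 251 and 399 in C258A cells. Site 33, chr8:128530492-128532259, in the cluster of 5 sites before MYC, scored between 273 and 754 in parental cells, between 189 and 475 in WT cells and between 232 and 1086 in C258A cells. The highest of these, without doxycycline in C258A cells, was the top window score of that list. All 4 sites thus had higher scores without doxycycline than with doxycycline and DMSO in C258A cells, while in WT cells the order differed between sites.

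**Figure D3:**
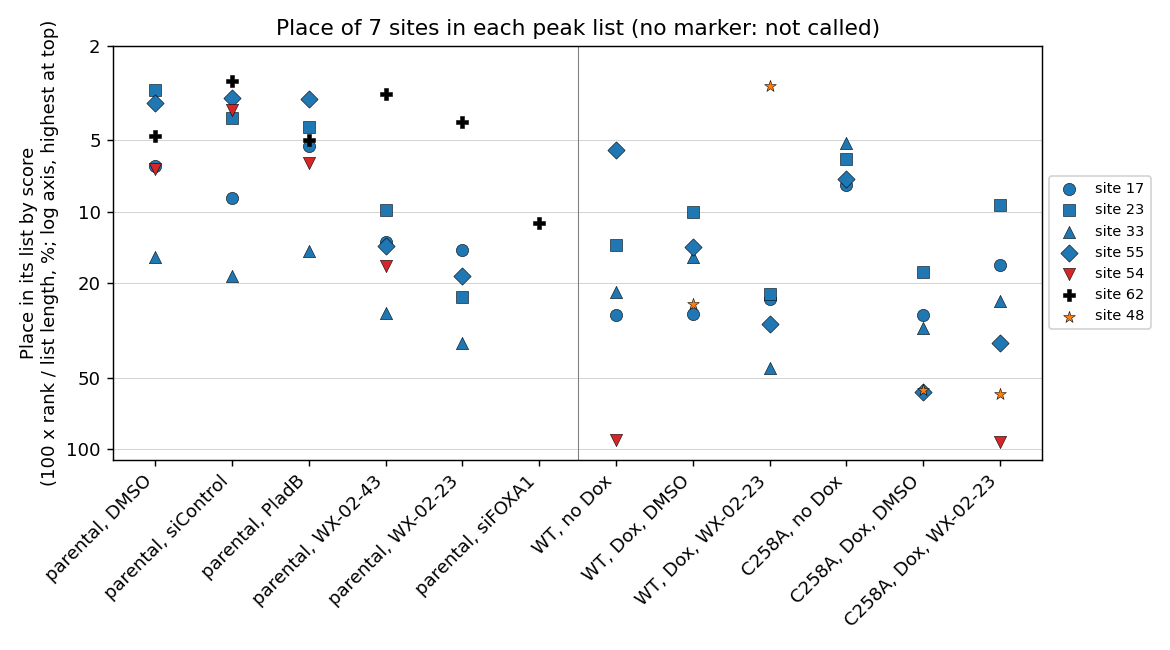
Place of 7 sites in each list (y axis, 100 times the rank divided by the number of peaks, log axis, highest scores at the top) for the 12 lists (x axis); a missing marker means that the site was not called. The 4 sites called in 11 lists (blue) are joined by site 62, called in parental lists only, site 54, not called with WX-02-23 in parental cells, and site 48, called with doxycycline only and at 2.96% of its list in WT cells with WX-02-23.

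Most DMSO peaks were also called with PladB and siControl. Of the 34 parental DMSO peaks, 32 (94.1%, 80.9 to 98.4%) were called with siControl, against 88.1% of the whole DMSO list, and 32 with PladB, against 88.2%. The same 2 peaks were missing from both, at sites 43 and 51, with DMSO scores of 91.6 and 99.6. Of the 36 PladB peaks 5 had no DMSO partner (13.9%, 6.08 to 28.7%; whole list 19.4%), and of the 37 siControl peaks 6 (16.2%, 7.65 to 31.1%; 21.5%). The highest score of a peak gained with either was 174.

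After FOXA1 knockdown, 4 of the 37 siControl peaks (10.8%, 4.29 to 24.7%) were still called, against 3.84% of the whole siControl list. This value depended on the overlap asked for: with a reciprocal overlap of 50% it was 1 of 37 (2.70%, against 2.40% of the whole list). With both lists at the length of the siFOXA1 list it was 2 of 6 (33.3%, against 23.0%). The FOXA1 level left after knockdown was not analysed here. The 5 siFOXA1 peaks of the window lay at sites 15, 25, 58, 59 and 62, which is 8.06% of the sites against 4.28% genome-wide. Of these, 1 had no siControl partner (20.0%, against 55.8% of the siFOXA1 list): site 59, chr8:129358044-129358401, with a score of 103, called in no other list. The siControl peaks that were kept had a median score of 1031 and those that were lost 227, beside 1081 and 217 in the whole siControl list.

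Site 62, chr8:129470162-129471347, 716 kb after MYC, was the highest window peak in the siControl, WX-02-43, WX-02-23 and siFOXA1 lists. It scored 1474 with DMSO, 1735 with siControl, 1411 with PladB, 1201 under WX-02-43, 1173 under WX-02-23 and 344 with siFOXA1. It was called in all 6 parental lists and in none of the 6 engineered lists. Site 58, chr8:129355668-129356824, scored from 397 to 1324 in the other 5 parental lists and 107 with siFOXA1. In engineered cells site 58 was called without doxycycline, with 240.4 in WT and 342 in C258A cells, and in no list with doxycycline. Site 15, chr8:127997837-127998623, scored from 469 to 880.0 in those 5 parental lists and 174 with siFOXA1, and site 25, chr8:128323938-128324758, from 358 to 584 and 108. Site 15 was otherwise called only in C258A cells and site 25 only in WT cells, both without doxycycline. None of the 4 sites shared by siFOXA1 and siControl was called in a list with doxycycline. Of the 1292 such sites of the genome, 80.7% were called in no list with doxycycline.

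The stereoprobes WX-02-23 and WX-02-43 were compared at the same dose and time. WX-02-23 kept 15 of the 34 DMSO peaks (44.1%, 28.9 to 60.5%), against 47.2% of the whole DMSO list. With WX-02-43 the number was 20 (58.8%, 42.2 to 73.6%), against 55.5%. Peak by peak, 14 were called with both, 6 with WX-02-43 only, 1 with WX-02-23 only and 13 with neither. The difference, WX-02-23 minus WX-02-43, was -14.7 percentage points, with a paired 95% interval (Agresti-Min) from -28.6 to 0.827. In the whole DMSO list it was -8.29 points (-8.84 to -7.74). As deposited, the interval of the window includes both 0 and the value of the whole list. With all 3 lists at 17217 peaks, the shorter length, WX-02-23 kept 14 of 23 DMSO peaks (60.9%; 68.6% of the whole list). WX-02-43 kept 19 (82.6%; 80.7%). The difference was -21.7 points (-37.5 to -2.47), beside -12.1 points over the whole lists at that length. This interval includes the value of the whole lists and excludes 0, so whether 0 is excluded depends on the list length. Both intervals treat peaks of 1 library per compound as independent draws and do not cover differences between libraries.

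The peaks called with both stereoprobes had higher DMSO scores than those called with neither. The 14 peaks called with both had DMSO scores from 276 to 1817 with a median of 554. The 13 called with neither had scores from 91.6 to 399 with a median of 148. The 6 called with WX-02-43 only had a median of 292. Taken by compound, kept and lost window peaks had medians of 540 and 174 with WX-02-23 (457 and 153 in the whole DMSO list). With WX-02-43 they were 479 and 145 (430 and 137), so the whole list had the same order. Of the 6 window peaks among the top 10% of the DMSO list, 5 were called with WX-02-23, where 97.5% of the top 10% were called genome-wide, and all 6 with WX-02-43, where 100% were.

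**Figure D4:**
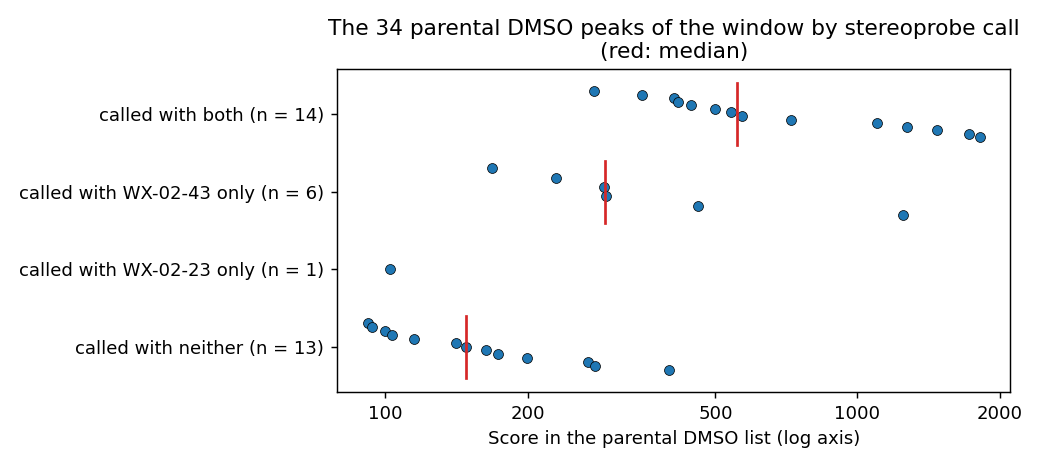
DMSO scores (x axis, log scale) of the 34 parental DMSO peaks of the window, grouped by whether a peak was called with both stereoprobes, 1 of them or neither (y axis); red lines are medians. The peaks called with both have a median of 554 and those called with neither 148, and 1 peak of the group called with WX-02-43 only, at a score of 1251, stands above the other 5 of its group.

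The strong peak that was not called with WX-02-23 was site 54, chr8:129164935-129165997, 411 kb after MYC. It scored 1251 with DMSO, 1563 with siControl, 1261 with PladB and 494 with WX-02-43, and ranked 2008 of 30557 with DMSO. In engineered cells it was called at 97.3 in WT cells without doxycycline and at 97.1 in induced C258A cells under WX-02-23. Site 55, which was called in 11 lists, lay 2.53 kb further on and was kept with WX-02-23 at a score of 471. Of the pair of neighbours, 1 was therefore listed with WX-02-23 and 1 was not.

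The next strongest peaks lost with WX-02-23 were site 18 and site 40, the latter at the end of MYC. Site 18, chr8:128030249-128031434, in the cluster with site 17, scored 459.8 with DMSO, 673 with siControl, 479.6 with PladB, 120.4 with WX-02-43 and 221 without doxycycline in C258A cells. Site 44, chr8:128907683-128908620, 154 kb after MYC, scored 293 with DMSO in parental cells, where it was kept with WX-02-43 at 123 and missing with WX-02-23. In WT cells with doxycycline site 44 was called at 267 with DMSO and at 171 with WX-02-23. The peak called with WX-02-23 and not with WX-02-43 was weak: site 29, chr8:128448440-128449061, scored 102 with DMSO and 91.5 with WX-02-23.

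Few peaks were gained with either compound. Of the 17 WX-02-23 peaks 2 had no DMSO partner (11.8%, 3.29 to 34.3%; whole list 15.5%), and of the 22 WX-02-43 peaks also 2 (9.09%, 2.53 to 27.8%; 6.10%). Set against each other, 14 of 22 WX-02-43 peaks had a WX-02-23 partner (63.6%, 43.0 to 80.3%; 67.5%), and 3 of 17 WX-02-23 peaks had no WX-02-43 partner (17.6%, 6.19 to 41.0%; 28.6%).

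Site 16, chr8:128023505-128024312, was gained with WX-02-23 in each of the 3 settings where the compound was set against DMSO. Over the whole lists, 15.5% (parental), 24.6% (WT) and 41.5% (C258A) of WX-02-23 peaks were gained. The share of sites genome-wide gained in all 3 settings is not given here, so how unusual site 16 is cannot be said. It scored 182 with WX-02-23 in parental cells, 172 in WT cells and 168 in C258A cells with doxycycline, and was called in none of the 3 DMSO lists they were set against. It was also called with PladB at 174 and with siControl at 113, neither of which involved WX-02-23. It lay 2.03 kb before site 17, which all these lists shared. Site 57, chr8:129353351-129354002, the other peak gained in parental cells, scored 149.6 there, and in induced WT cells 170.2 with DMSO and 135 with WX-02-23, so it was not new in those cells. The WX-02-43 gains, at sites 61 and 19, scored 112 and 92.6.

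Without doxycycline, the engineered lines showed mostly peaks of parental cells. All 10 WT peaks (95.5% of the whole list) and 13 of the 14 C258A peaks (92.9%, 68.5 to 98.7%; 92.8%) were parental DMSO peaks. With doxycycline and DMSO these shares were 7 of 17 in WT cells (41.2%, 21.6 to 64.0%; 35.7%) and 5 of 10 in C258A cells (50%, 23.7 to 76.3%; 40.4%). With WX-02-23 they were 5 of 16 in WT cells (31.3%, 14.2 to 55.6%; 34.8%) and 6 of 12 in C258A cells (50%, 25.4 to 74.6%; 38.7%). With a reciprocal overlap of 50%, the share in WT cells without doxycycline was 5 of 10, against 41.4% of the whole list, so these shares depended on the overlap asked for.

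The lists made with doxycycline differed in part from those made without it. In WT cells 5 of 10 peaks called without it were called with it (50%, 23.7 to 76.3%; 73.3% of the whole list), and 12 of the 17 peaks under doxycycline were gained (70.6%, 46.9 to 86.7%; 80.4%). In C258A cells 5 of 14 were kept (35.7%, 16.3 to 61.2%; 35.2%) and 5 of 10 were gained (50%, 23.7 to 76.3%; 66.2%). The kept peaks had higher scores than the lost ones in both lines, with medians of 288 and 109.8 in WT and 870.5 and 136 in C258A cells. The whole lists had the same order, with medians of 190.4 and 115.8 in WT and 403 and 148 in C258A cells. Among the top 50% of each list, 4 of 5 WT peaks of the window were kept (80.0%; 70.7% of the whole list).

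The sites that parental cells held in common were mostly missing under doxycycline. All 5 parental lists other than siFOXA1 called 14 sites (22.6% of the 62; 16.9% genome-wide). Of these, 7 were called in WT cells without doxycycline (50%; 49.8% genome-wide) and 9 in C258A cells without it (64.3%; 63.9%). With doxycycline the count was 4 in each list: 28.6% (11.7 to 54.6%). Genome-wide the shares were 55.8% (DMSO) and 49.3% (WX-02-23) for WT cells, and 31.4% (DMSO) and 45.5% (WX-02-23) for C258A cells. They were sites 17, 23, 33 and 55 in all 4 lists (27.9% genome-wide for all 4). The other 10 sites were called in no list with doxycycline, which is 71.4% (45.4 to 88.3%) beside 37.9% genome-wide. Of the 14, 4 were called in no engineered list at all (28.6%; 23.1%).

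Conversely, 16 sites were called only with doxycycline (25.8%; 36.0% genome-wide). Of the 17 engineered-only sites, 10 were called in 1 doxycycline list (58.8%; 43.3% of engineered-only sites genome-wide). A further 3 were called in 2 of these lists (17.6%; 22.7%), 1 in 3 (5.88%; 13.8%) and 2 in all 4 (11.8%; 19.0%). The remaining 1, site 20, was called only without doxycycline (5.88%; 1.19%). The WT doxycycline lists alone called 10 of them (58.8%; 50.5%), the shorter C258A doxycycline lists alone 2 (11.8%; 7.12%), and both lines 4 (23.5%; 40.7%). All 4 doxycycline lists shared 6 of the 62 sites (9.68%; 13.9% genome-wide), the 4 of parental cells and sites 12 and 48.

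Site 48, chr8:129052738-129053897, 299 kb after MYC, scored 346 with DMSO and 946.5 with WX-02-23 in induced WT cells, and 150.4 and 153 in C258A cells. With WX-02-23 it was the highest window peak of the WT list and ranked 766 of 25849. With DMSO it ranked 7790 of 31735. Site 12, chr8:127882337-127883050, 865 kb before MYC, scored 242 with DMSO and 148 with WX-02-23 in induced WT cells, and 309 and 444 in C258A cells. No parental list, siFOXA1 included, and no list without doxycycline called either site.

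WX-02-23 was then set against DMSO in cells with doxycycline, in each line. In WT cells WX-02-23 kept 10 of 17 DMSO peaks (58.8%, 36.0 to 78.4%; 60.7% of the whole list), and 6 of 16 WX-02-23 peaks were gained (37.5%, 18.5 to 61.4%; 24.6%). In C258A cells 7 of 10 were called (70.0%, 39.7 to 89.2%; 90.8%) and 5 of 12 were gained (41.7%, 19.3 to 68.0%; 41.5%). With a gap of up to 500 bp allowed between partners, the kept counts were 11 of 17 in WT cells (64.7%; 62.1%) and 8 of 10 in C258A cells (80.0%; 91.2%). The intervals of the lines overlap, and each rests on 17 peaks or fewer.

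The peaks lost or gained with WX-02-23 in the engineered lines scored at most 198. In WT cells the strongest lost ones were site 34, chr8:128532337-128532926, with a DMSO score of 198 (list median 192), site 4, chr8:127615942-127616541, with 181, and site 24, chr8:128282990-128283761, with 127. The strongest gained ones were site 36, chr8:128629141-128629551, with a score of 191 (list median 174), site 16 and site 41. In C258A cells the lost peaks were at site 44, with a DMSO score of 136, site 34, with 115, and site 10, chr8:127830892-127831277, with 113. Site 34 was lost in both lines and lay 77 bp after site 33, which was called in both. With a gap of up to 500 bp allowed between partners, site 34 was no longer lost in either line. The C258A gains beyond site 16 had scores from 92.2 to 97.1, near the floor of 90, and included site 54 and site 22, chr8:128103736-128104527. Site 22 was not new in C258A cells, where it scored 319 without doxycycline. It was also called in WT cells without doxycycline, at 101, and in 4 parental lists.

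Between the lines, 8 of the 17 WT peaks with doxycycline and DMSO were C258A peaks (47.1%, 26.2 to 69.0%; 38.8% of the whole list), and 2 of the 10 C258A peaks had no WT partner (20.0%, 5.67 to 51.0%; 6.39%). With both lists at the shorter length, all 7 WT peaks of the window were C258A peaks, against 69.5% of the whole list. With WX-02-23, 8 of 16 WT peaks were C258A peaks (50%, 28.0 to 72.0%; 56.8%) and 4 of 12 C258A peaks had no WT partner (33.3%, 13.8 to 60.9%; 28.8%). The plot of kept shares sets all 12 comparisons beside their whole lists. Comparisons with a list in common are not independent.

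**Figure D5:**
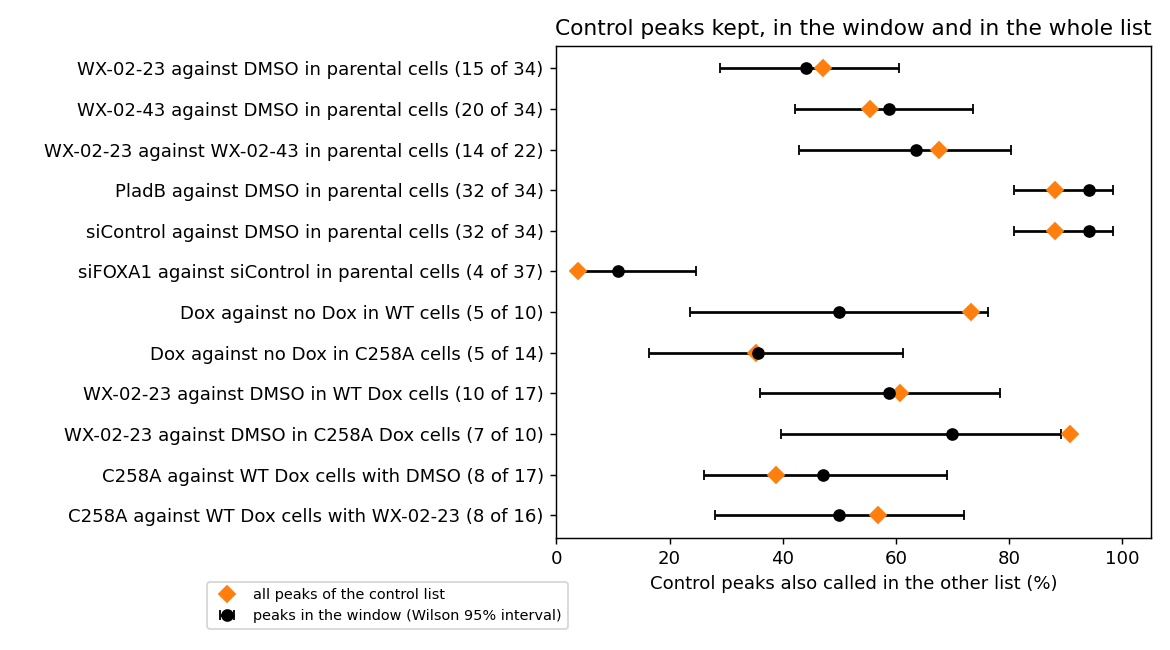
Share of control peaks also called in the other list (x axis, %) for 12 comparisons (y axis, with the number kept of the number in the window); black points are peaks in the window with Wilson 95% intervals, and orange diamonds are all peaks of the control list. The whole-list value lies outside the interval in the siFOXA1 comparison (3.84%, below 4.29%) and in C258A cells with WX-02-23 (90.8%, above 89.2%), and inside it in the other 10. With a reciprocal overlap of 50% the siFOXA1 share of the window is 2.70%, against 2.40% of the whole list. With a gap of up to 500 bp the C258A share with WX-02-23 is 80.0%, against 91.2%.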

How the data were processed

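FOXA1 ChIP-seq was deposited by the authors as 1 BED list per library, with 5 columns and no header, and peaks were not pooled. The deposited score of each peak, in the authors' unit, is not defined in the sources used here; peak names begin with MACS. Per the submitters' processing notes, reads were handled with bcl2fastq and Bowtie2 and the build was hg19; caller version, thresholds and control are not given in the sources used here. Per the labels' protocols, cells were fixed with 1.1% formaldehyde.

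Starts were read as counted from 0 and are printed counted from 1. An overlap of 1 bp made a pair of peaks shared. Kept is the share of control peaks with a partner in the other list, and gained counts peaks of the other list with none. All 12 comparisons were computed on whole lists (Python 3.11.15, numpy 2.4.6, pandas 2.3.3, scipy 1.17.1) by code tested on simulated data. Sites named by position followed a rule: sites called in 11 lists, sites at or next to MYC, siFOXA1 sites, each list's highest, and the 3 strongest lost and gained with WX-02-23 or with 1 stereoprobe. Sites 12, 19, 20, 42, 43, 51, 56 and 61 fall outside it and were chosen after their values were seen. The window, comparisons and rule were chosen with earlier results of these data known. No hg19 genome or annotation was used here, and no sequence of the region is printed.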

Additional observations from a re-analysis of the deposited data

Results flagged for a closer look

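In the lists as deposited, the number of window peaks went up in one engineered line and down in the other under the same change, each value coming from 1 library per condition, and the differences were not tested. With WX-02-23 against DMSO under doxycycline it changed by -1 in WT cells (17 to 16) and by 2 in C258A cells (10 to 12). With doxycycline against none it changed by 7 in WT cells (10 to 17) and by -4 in C258A cells (14 to 10). Whole lists moved as well. With WX-02-23 the WT list went from 31735 to 25849 peaks and the C258A list from 13299 to 20609. With doxycycline the WT list went from 8575 to 31735 peaks and the C258A list from 12752 to 13299. Among the 8575 highest-scoring peaks of each list, a length chosen after seeing the data, the counts no longer went in opposite directions. At that length WT cells had 10 window peaks without induction, 5 when induced in DMSO and 4 when induced under WX-02-23. C258A cells had 8, 7 and 5 in the same order.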

How the results depend on the processing

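Alternatives were a reciprocal overlap of 50%, a gap of up to 500 bp, the top 50% of each list, both lists at the shorter length, and the window narrowed by 250 kb at each end. A gap and a narrower window moved none of the 12 kept shares outside its interval. The share of the whole list at the same setting is given in brackets below. Both lists at the shorter length moved 4. These were WX-02-23 against DMSO, to 60.9% (68.6%), and WX-02-43 against DMSO, to 82.6% (80.4%). The others were siFOXA1, to 33.3% (23.0%), and C258A against WT cells with DMSO, to 100% (69.5%). The top 50% moved 2, to 80.0% (70.7%) for doxycycline in WT cells and 100% (92.0%) for WX-02-23 in C258A cells. A reciprocal overlap moved 1, siFOXA1, to 2.70% (2.40%). The number of sites fell to 29 with the top 50%, since fewer peaks enter. Of the shares of engineered peaks in the parental DMSO list, whose alternatives were chosen after seeing the data, a reciprocal overlap moved 3: to 50% for WT cells without doxycycline and, under WX-02-23, to 12.5% (WT) and 25% (C258A). The top 50% moved 2 of them, to 57.1% (WT) and 80.0% (C258A) under WX-02-23, and the shorter length 1, to 70.0% for WT cells without doxycycline. The cause was not tested. As deposited each share rests on 10 to 37 peaks, some alternatives leave as few as 4, and with 1 library per group none has a replicate check. No paired analysis was possible because each group has 1 library, so there are no replicates to pair; the paired interval of the stereoprobes pairs peaks.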
